A study of Mus musculus with 13 samples.

Results

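Immunoglobulin kappa variable (Igkv) genes were taken as every gene of the deposited count table whose mouse symbol starts with Igkv. This gave 124 genes of 34013 in the table. They were 99 of the 100 functional-type V genes and 25 of the 60 V pseudogenes that GENCODE M21 names Igkv, and the other 36 were not analysed here. The tissue was perivascular adipose tissue, the fat around blood vessels, from recipient mice given splenocytes. The groups differed in the donor. NTS-R mice received splenocytes of Nlrp3 knockout mice with type 2 diabetes (3 libraries), and TS-R mice those of mice with type 2 diabetes (4 libraries). NS-R mice received splenocytes of Nlrp3 knockout mice without the diabetes label (3 libraries), and WTS-R mice those of wild-type mice (3 libraries). All carried the C57BL/6 background label. The genotype label read Nlrp3 KO for NTS-R and NS-R and WT for TS-R and WTS-R, and it did not say whether it described the donor or the recipient. The labels gave no age, sex, collection time, way of inducing diabetes or dose of cells. Nothing in them said that replicates were separate animals, so p-values measure only the spread between these samples, which may be technical. The study asked how the donor's diabetes, with or without Nlrp3, altered the immune cells of this fat.

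A kappa light chain is assembled in each developing B cell, which joins a V gene to a J segment in front of the constant gene Igkc. The progeny of that cell keep the same V gene, so the V genes read in a tissue reflect which B cell and plasma cell clones are there and how much transcript each makes. Plasma cells carry far more light chain RNA per cell than resting B cells. In bulk tissue, fewer cells of a type and less RNA per cell cannot be told apart.

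The total count ran from 14216706 in NTS-R replicate 3 up to 37011122 in NS-R replicate 1, and levels are given as CPM, counts scaled to that total. Counts of 0 allow up to 3 counts, or 0.0811 to 0.211 CPM depending on the library, and these floors and all intervals on counts cover counting error only. Several libraries stood apart from their group. TS-R replicate 3 had 1166 CPM of Glycam1, a product of high endothelial venules of lymph nodes, and replicates 2 and 4 had 74.3 and 8.54 CPM, while no other library exceeded 0.116 CPM. Xist, the transcript of the inactive X chromosome, reached 805 CPM in TS-R replicate 3 and 459.5 CPM in NS-R replicate 3, and at or under 0.352 CPM in the other 11. The summed level of 4 airway and lung genes was 2737, 5667 and 0.177 CPM in NS-R replicates 1 to 3, and at or under 0.481 CPM in every NTS-R, TS-R and WTS-R library. NS-R replicates 1 and 2, with the airway transcripts, were the NS-R libraries low in Igkv. The summed level of 3 skeletal muscle genes was 7329 CPM in TS-R replicate 1, the TS-R library lowest in Igkv, against 493, 1.06 and 911 CPM in TS-R replicates 2 to 4 and at most 1116 CPM elsewhere. The part of these other tissues in the Igkv values was not tested. Nlrp3 itself was at 0.352 to 1.22 CPM in NTS-R, 0.537 to 3.55 CPM in TS-R, 0.456 to 1.36 CPM in NS-R and 0.226 to 0.693 CPM in WTS-R, so it did not separate the genotype labels.

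The members lay on chromosome 6 (GRCm38), between 67555497 and 70704177, upstream of Igkc at 70726435 to 70726966. Of these, 53 lay on the same strand as Igkc (plus) and 71 on the opposite one, which join by inversion. Their symbols fell into 20 families, and annotated exons were short, 200 to 501 bases with a median of 359. Members resemble each other. The 99 V genes were compared over the coding bases of their last exon, with other Igkv genes that have annotated coding bases there. The identity to the nearest one ran from 67.9% to 99.0% with a median of 94.2%, and 45 had a partner at 95% or more. Germline sequences are shown for 3 members that led the usage of a library by counts or per length, each above its nearest relative, since reads of such pairs can be split by the authors' counting. They are the last 120 coding bases of each segment, from the GRCm38 genome with the GENCODE M21 annotation, written 5′ to 3′ on the coding strand, and capitals mark the bases that differ within the pair.

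Igkv10-96 (chr6:68631963-68632082, minus): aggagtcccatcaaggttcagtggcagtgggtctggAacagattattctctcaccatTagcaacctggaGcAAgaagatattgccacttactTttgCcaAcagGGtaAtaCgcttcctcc
Igkv10-94 (chr6:68704508-68704627, minus): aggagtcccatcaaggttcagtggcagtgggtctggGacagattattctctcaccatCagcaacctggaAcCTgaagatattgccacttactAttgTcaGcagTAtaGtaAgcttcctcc
Igkv12-44 (chr6:69814631-69814750, minus): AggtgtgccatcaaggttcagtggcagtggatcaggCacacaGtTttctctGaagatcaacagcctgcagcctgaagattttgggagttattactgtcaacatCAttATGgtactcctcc
Igkv12-41 (chr6:69858420-69858539, minus): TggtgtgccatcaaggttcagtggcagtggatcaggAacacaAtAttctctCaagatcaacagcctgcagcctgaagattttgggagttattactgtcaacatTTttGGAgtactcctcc
Igkv14-126 (chr6:67896523-67896642, plus): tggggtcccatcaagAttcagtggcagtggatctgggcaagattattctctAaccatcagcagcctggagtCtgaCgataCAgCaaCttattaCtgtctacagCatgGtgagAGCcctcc
Igkv14-111 (chr6:68256750-68256869, plus): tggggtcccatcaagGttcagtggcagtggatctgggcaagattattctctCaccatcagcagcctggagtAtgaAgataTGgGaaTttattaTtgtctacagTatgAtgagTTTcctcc

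The printed stretches differed at 12 of 120 bases for Igkv10-96 and Igkv10-94, at 10 for Igkv12-44 and Igkv12-41, and at 14 for Igkv14-126 and Igkv14-111. Of these, 7, 5 and 6 fell in the last 30 bases. That stretch encodes the last residues before the third hypervariable loop and the start of the loop. Over all coding bases of the last exon, 298 in each of these genes, the identities were 94.6%, 95.7% and 91.0%.

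Summed over all members, Igkv transcripts were at 108, 201 and 309 CPM in NTS-R, at 171, 1162, 6545 and 1079 CPM in TS-R, at 3.68, 10.4 and 449 CPM in NS-R, and at 7.27, 3.67 and 6.11 CPM in WTS-R (replicates in order). All NTS-R and TS-R libraries and NS-R replicate 3 lay more than an order of magnitude above the 3 WTS-R libraries, and NS-R replicates 1 and 2 lay near them. TS-R replicate 3 alone held 77.3% of all Igkv counts of the series. These sums rested on 1864 to 4386 counts in NTS-R, 5100 to 191929 in TS-R, 136, 183 and 7605 in NS-R, and 65 to 121 in WTS-R. Usage within a library is therefore read mainly over the 8 libraries with more than 1000 Igkv counts, which are all of NTS-R and TS-R and NS-R replicate 3.

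**Figure D1:**
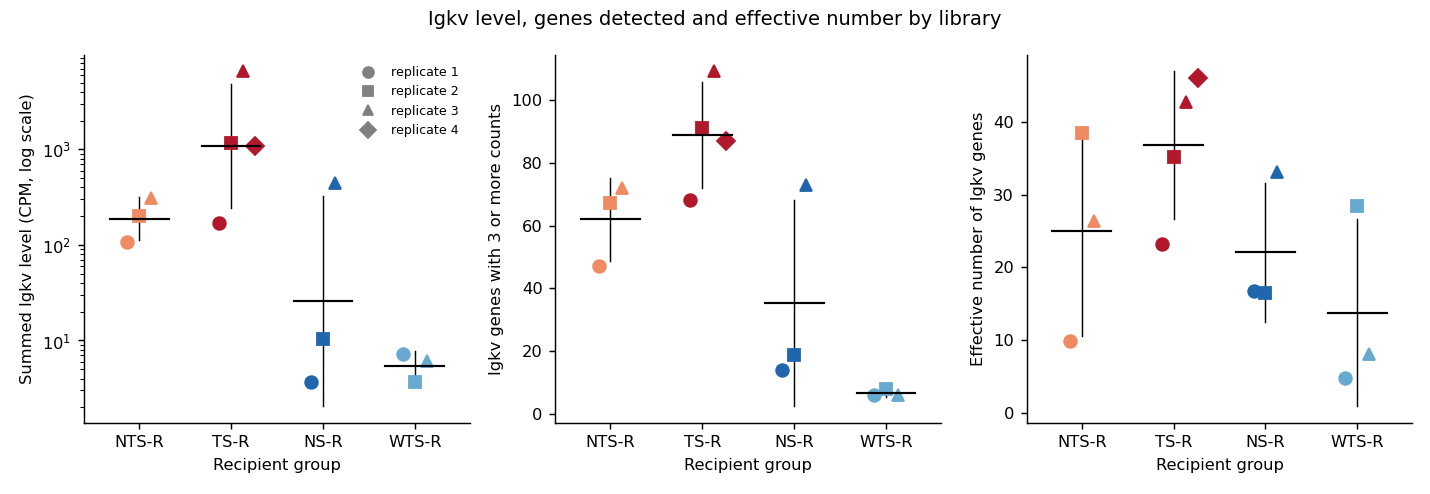
Left, summed Igkv level per library in CPM on a log scale; middle, number of Igkv genes with 3 or more counts; right, effective number of Igkv genes. Points are libraries by group with replicate shown by shape, and lines are the mean ± SD (of log2 values on the left). TS-R replicate 3 stands at 6545 CPM, NS-R replicate 3 at 449 CPM far above the other NS-R libraries, and the WTS-R libraries between 3.67 and 7.27 CPM.

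TS-R exceeded WTS-R without overlap. The log2 summed level averaged 10.09 ± 2.15 in TS-R and 2.45 ± 0.51 in WTS-R (SD, n = 4 and 3), a difference of 7.64, or 199-fold between geometric means. Without TS-R replicate 3 the difference was 6.78. The lowest TS-R library, replicate 1 at 171 CPM, was still far above the highest WTS-R library. NTS-R averaged 7.56 ± 0.76 against the same TS-R values, a difference of -2.53, and the groups overlapped because TS-R replicate 1 lay below 2 of the NTS-R libraries. That difference was -1.67 without TS-R replicate 3 and -3.42 without TS-R replicate 1. NS-R averaged 4.69 ± 3.65 against 2.45 ± 0.51 in WTS-R, a difference of 2.24 with overlapping groups. It shrank to 0.18 without NS-R replicate 3. NTS-R exceeded NS-R by 2.87, again with overlap, and by 4.93 without NS-R replicate 3. TS-R replicate 3 and NS-R replicate 3, the libraries highest in Igkv in their groups, were also those with Xist. The level of clock genes, the mean log2 CPM of Dbp, Per3 and Ciart less that of Arntl, Npas2 and Clock, was low in WTS-R and differed within the other groups. It was -0.51, 3.73 and 2.53 in NTS-R, 2.40, 2.66, 0.97 and 2.71 in TS-R, -1.02, -0.56 and 2.54 in NS-R, and -0.65, -1.68 and -1.93 in WTS-R. The 5 libraries with the lowest Igkv sums and NTS-R replicate 1 were below 0. TS-R replicate 3, with the highest Igkv sum, had the lowest clock level of TS-R. The part of collection time, sex or tissue content in these values was not tested. TS-R serves in both of the first pair of comparisons and WTS-R, NS-R and NTS-R each serve in a further pair, so the comparisons are not independent of each other.

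More members were seen where the summed level was higher. The number of Igkv genes with 3 or more counts was 47, 67 and 72 in NTS-R, 68, 91, 109 and 87 in TS-R, 14, 19 and 73 in NS-R, and 6, 8 and 6 in WTS-R. In all, 110 of the 124 members reached 3 counts in some library, and 13 of these only in TS-R replicate 3. None reached it in all 13 libraries, while 38 did in all 8 libraries with more than 1000 Igkv counts. Within groups, 40 members were detected in every NTS-R library, 66 in every TS-R library, 6 in every NS-R library and 0 in every WTS-R library. The number found follows the number of counts drawn, so libraries were also set at a fixed depth. Among 500 Igkv counts drawn at random from a library, the expected number of genes was 51.0, 63.8 and 61.0 in NTS-R and 59.3, 68.7, 70.5 and 69.9 in TS-R, against 65.1 in NS-R replicate 3. At that depth the mean of NTS-R less that of TS-R was -8.52 genes, beside -26.75 for the numbers detected, and the ranges overlapped. In 100 counts the number was 27.9 to 42.4 in NTS-R, 37.6 to 45.6 in TS-R and 30.9 to 42.0 in NS-R, against 27.5 in WTS-R replicate 1. The other 2 WTS-R libraries held fewer than 100 Igkv counts.

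Evenness was described by the effective number of genes, the count of equally used genes that would give the same chance of drawing the same gene in 2 picks. It was 9.89, 38.5 and 26.4 in NTS-R, 23.2, 35.2, 42.7 and 46.1 in TS-R, 16.7, 16.4 and 33.1 in NS-R, and 4.81, 28.5 and 8.04 in WTS-R. The values of WTS-R and of NS-R replicates 1 and 2 rest on 65 to 183 counts. The means were 24.9 ± 14.4 in NTS-R and 36.8 ± 10.1 in TS-R (SD, n = 3 and 4), a difference of -11.87 with overlapping groups. It was -4.34 without NTS-R replicate 1. TS-R exceeded WTS-R (13.8 ± 12.8) by 23.03 and NS-R (22.1 ± 9.5) exceeded WTS-R by 8.28, and in both the libraries overlapped. The difference between NTS-R and NS-R was 2.89 and was -3.91 without NTS-R replicate 2. At 500 counts only replicate 3 of NS-R had enough counts to be set against NTS-R. Pielou evenness, in which 1 means equal use of all detected genes, was 0.755 in NTS-R replicate 1 and 0.852 to 0.918 in the other 7 deep libraries.

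**Figure D2:**
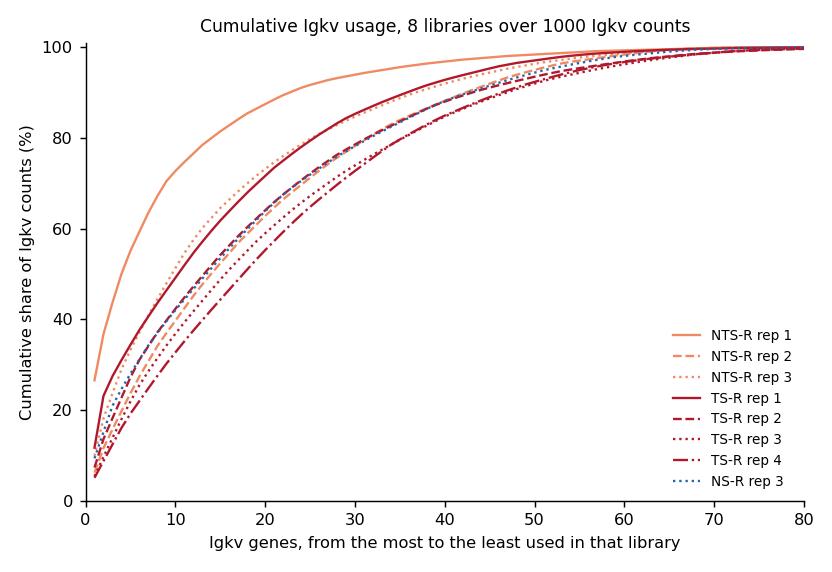
Cumulative share of a library's Igkv counts (%) against the number of Igkv genes, ordered from the most to the least used in that library, for the 8 libraries with more than 1000 Igkv counts. The NTS-R replicate 1 curve is the steepest, with 55.1% of counts in its top 5 genes; TS-R replicate 4 is the flattest, with 19.2%.

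The top 5 genes of a library took 55.1%, 23.7% and 33.3% of its Igkv counts in NTS-R and 34.4%, 27.2%, 21.9% and 19.2% in TS-R, against 28.01% in NS-R replicate 3. To reach 50% of the counts, 4, 14 and 10 genes were needed in NTS-R and 11, 14, 16 and 18 in TS-R, against 14 in NS-R replicate 3. NTS-R replicate 1 was the most concentrated of the deep libraries and the other libraries of its group lay within or near the TS-R range.

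The leading gene differed from library to library. In NTS-R, Igkv10-96 led replicate 1 with 26.6% of counts (exact 95% interval 24.6 to 28.6), Igkv8-30 led replicate 2 with 6.21%, and Igkv15-103 led replicate 3 with 9.90%. Among TS-R libraries the leaders were Igkv12-44 with 11.7% (10.8 to 12.6) in replicate 1, Igkv3-4 with 7.33% in replicate 2, Igkv8-30 with 5.39% in replicate 3 and Igkv10-96 with 5.07% in replicate 4. NS-R was led by Igkv8-24 (16.9%, 11.03 to 24.3), Igkv4-61 (13.1%, 8.59 to 18.9) and Igkv12-46 (9.36%, 8.72 to 10.04). In WTS-R the leaders were Igkv8-30 (42.1%, 33.2 to 51.5, from 51 counts), Igkv1-117 tied with Igkv8-30 at 6 counts each, and Igkv1-135 (23.7%, 15.7 to 33.4). Per length of annotated exon, the leader changed in TS-R replicate 1, to Igkv14-126, and the tie in WTS-R replicate 2 resolved to Igkv8-30.

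**Figure D3:**
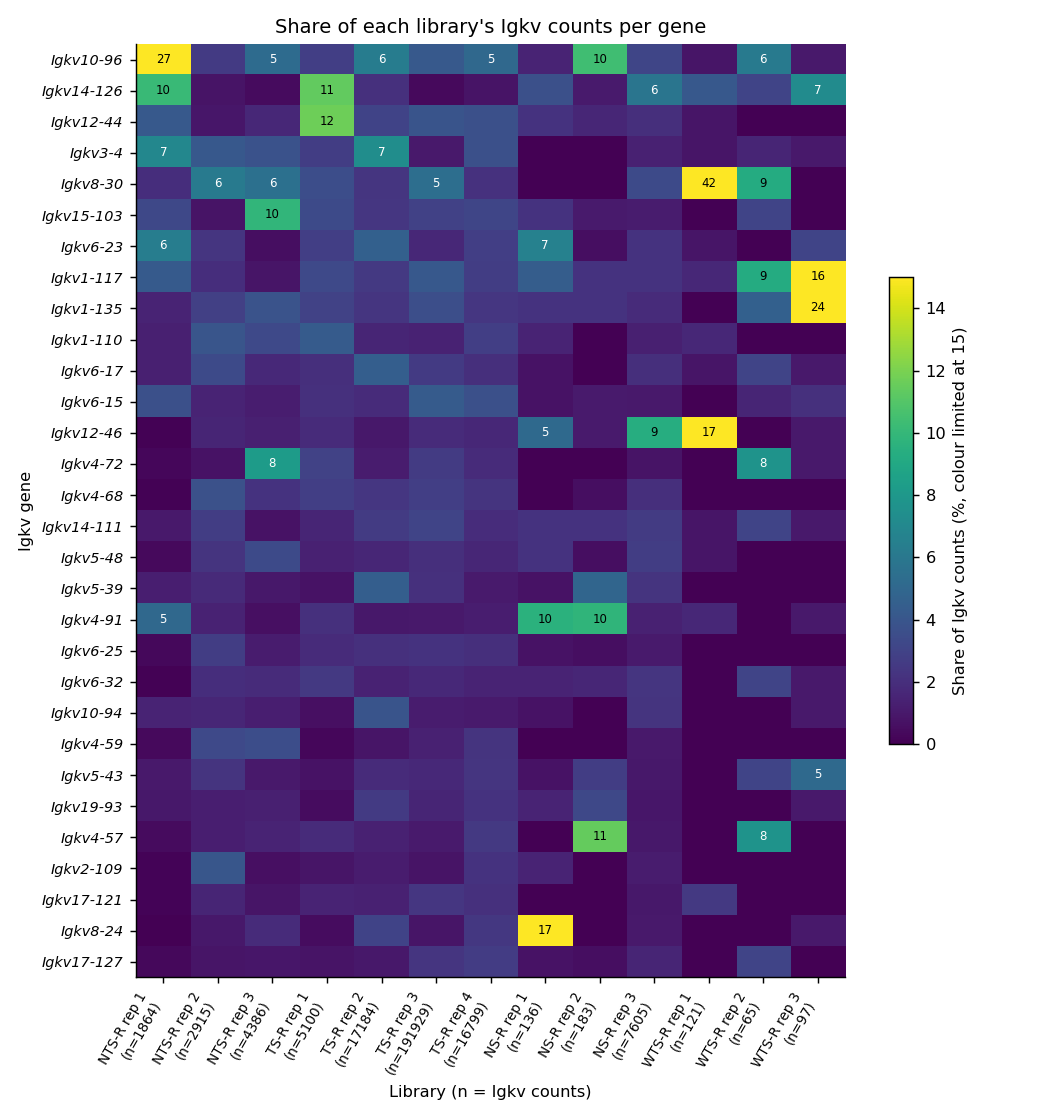
Share of each library's Igkv counts (%, colour limited at 15) for the 30 genes with the highest mean share in the 8 deep libraries; shares of 5% or more are printed, and n under each library is its Igkv counts. Igkv10-96 stands out in NTS-R replicate 1 (26.6%), Igkv12-44 and Igkv14-126 in TS-R replicate 1 (11.7% and 11.4%), and Igkv12-46 in NS-R replicate 3 (9.36%); bright cells in WTS-R and in NS-R replicates 1 and 2 rest on few counts.

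In the 8 deep libraries, 12 members passed 5% of Igkv counts somewhere, in 20 cases. Some did so in libraries of different groups. Igkv10-96 passed 5% in 4 libraries (NTS-R replicates 1 and 3 and TS-R replicates 2 and 4), Igkv8-30 in 3 (NTS-R replicates 2 and 3 and TS-R replicate 3), and Igkv3-4 took 6.92% in NTS-R replicate 1 and 7.33% in TS-R replicate 2. Of the other 9, Igkv14-126 passed it in 3 libraries and 8 genes in a single library. Igkv10-96 took 26.6% in NTS-R replicate 1 and 2.54% to 6.27% in the other 7, and its closest relative Igkv10-94 took 1.502% in NTS-R replicate 1. Igkv12-44 took 11.7% in TS-R replicate 1 and 0.892% to 4.19% elsewhere, while Igkv12-41 stood at 0.373% in that library. Igkv14-126 was at 10.2% in NTS-R replicate 1, 11.4% in TS-R replicate 1 and 5.81% in NS-R replicate 3, and at 0.362% to 2.08% in the other 5. Its relative Igkv14-111 took 1.02%, 1.55% and 2.59% in those 3 libraries. In NS-R replicate 3, Igkv12-46 took 9.36% and Igkv6-14 took 5.75%, against at most 1.83% and 0.686% in any other deep library. NTS-R replicate 2 had 5.39% of Igkv6-13, against 0.0784% to 2.21% elsewhere. NTS-R replicate 3 had 9.90% of Igkv15-103 and 8.25% of Igkv4-72, against at most 3.37% and 2.98% elsewhere. These genes were picked for their high shares, so the gaps are a description.

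Usage profiles were compared between libraries by the Morisita index, which is 1 for equal profiles and 0 for no shared gene. Pairs of NTS-R libraries gave 0.309 to 0.635 and pairs of TS-R libraries 0.609 to 0.885. Pairs of an NTS-R and a TS-R library gave 0.389 to 0.771, and NS-R replicate 3 gave 0.362 to 0.581 with NTS-R and 0.594 to 0.651 with TS-R. Over all deep pairs the median was 0.635 within groups (9 pairs) and 0.594 between groups (19 pairs), with overlapping ranges. Pairs share libraries, so these are descriptions.

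Gene by gene, all 13 libraries entered a fit with edgeR's quasi-likelihood test, adjusted by Benjamini-Hochberg over the 17270 genes that passed the filter on low counts. Of the 124 members, 77 passed the filter, 75 of them already through 3 TS-R libraries. Outside TS-R, 50 of the 77 reached the filter's level in 3 or more libraries. Counts of 10 or more in a library were reached by 65 in NTS-R, 67 in NS-R and only 5 in WTS-R. A member that passed through the group where it is high had to differ, so counts over the 77 describe them and support no further claim. The same limit holds for the counts by DESeq2. Its filter uses the mean count over all libraries, and TS-R replicate 3 held 77.3% of all Igkv counts. No member, and no gene of any kind, passed an adjusted p (FDR) of 0.05 in any of the 4 comparisons or the interaction, so the share of all genes called was 0% each time.

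In TS-R against WTS-R, the lowest adjusted p of a member was 0.0624. At an unadjusted p under 0.05, 75 of the 77 were higher in TS-R, where 15.2% of all tested genes were higher. Groups did not overlap for 65 members on the TMM-scaled CPM of the fit, all higher in TS-R, against 8.96% of all genes. DESeq2 called 74 of 85 members higher, against 8.11% of all genes it tested. The edgeR count was 65 of 76 without TS-R replicate 1, where 9.05% of all genes were called higher, and 35 of 72 with replicate 4 of TS-R left out, where 5.76% were. It was 0 when any other single library was left out. The median fitted log2 fold change was 9.20 for the members and 0.03 for all genes. Because 68 of the 124 members had no count in WTS-R and 39 more had 1 to 3, fitted values depend on the prior count. With pooled counts per group and genes without a WTS-R count set at the bound of 3 counts over the group, the median of the 77 was 8.80.

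The 5 members with the smallest p in that comparison were Igkv4-91, Igkv12-44, Igkv9-120, Igkv3-1 and Igkv6-15, each at an adjusted p of 0.0624 by edgeR. Igkv4-91 was at 3.52, 11.03, 65.3 and 12.7 CPM in TS-R, against 0.120, 0 and 0.0630 CPM in WTS-R. Its fitted log2 fold change was 8.14 ± 1.58 (SE), and the ratio of pooled counts was 445 (exact 95% interval 152 to 2161), from 3 counts in WTS-R. Igkv12-44 was at 20.03, 35.2, 255 and 39.4 CPM in TS-R, with 1 count in all of WTS-R (0.0601, 0 and 0 CPM). That gave a fitted log2 fold change of 11.41 ± 2.27 and a pooled ratio of 5170 with an interval of 928 to 204200. Igkv3-1, the member nearest to Igkc, was at 1.44, 8.32, 20.7 and 1.93 CPM in TS-R, with no count in WTS-R, so it was at least 150-fold higher over pooled counts. Igkv9-120 was at 0.906, 10.9, 78.6 and 17.3 CPM in TS-R, against 0.0601, 0.0565 and 0 CPM in WTS-R. Igkv6-15 was at 3.59, 21.7, 280 and 39.8 CPM in TS-R, against 0, 0.0565 and 0.126 CPM in WTS-R. In all 5, every TS-R library lay above every WTS-R library, and all WTS-R values were under the 3-count floor.

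In NTS-R against TS-R, all 77 tested members had a negative fitted fold change, with a median of -3.42 against -0.03 for all genes. The lowest adjusted p was 0.105. At an unadjusted p under 0.05, 39 were lower in NTS-R, where 14.1% of all genes were, and 10 were lower without overlap, where 6.83% of all genes were. DESeq2 called 9 of 84 lower, against 6.61% of all genes. The edgeR count of lower members was 6 of 76 without TS-R replicate 1, where 5.75% of all genes were called lower, and 1 of 72 with replicate 4 of TS-R left out, where 4.21% were. These shares, 7.89% and 1.39% of members, were near or under those of all genes, and the count was 0 without any other single library. The members' median was -1.90 without TS-R replicate 3. Igkv3-1 had the smallest p (0.00225, adjusted 0.105 by edgeR). It was at 0.0580, 0.483 and 0 CPM in NTS-R against the TS-R values given above, with a fitted log2 fold change of -5.13 ± 1.28, and the groups did not overlap on either scale. The next were Igkv9-120, at 0.870, 1.04 and 0.774 CPM in NTS-R, and Igkv10-95, which had no count in NTS-R and 0.0671 to 1.88 CPM in TS-R. For Igkv10-95 the lowest TS-R value was under the smallest 3-count floor of TS-R, 0.101 CPM. Counts of 0 in NTS-R allow 0.174 to 0.211 CPM, so its groups are not apart beyond these floors. Igkv4-55 was at 0.348 to 0.774 CPM in NTS-R and 1.01 to 71.5 CPM in TS-R, and Igkv8-28 at 0 to 1.10 CPM in NTS-R and 1.31 to 53.6 CPM in TS-R. For Igkv9-120 the highest NTS-R library just exceeded TS-R replicate 1, and for Igkv4-55 and Igkv8-28 the groups were apart on plain CPM and overlapped on TMM-scaled CPM.

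In NS-R against WTS-R, the lowest adjusted p of a member was 0.395. At an unadjusted p under 0.05, 29 members were higher in NS-R, where 4.92% of all genes were, while only 6 did so without overlap, where 7.95% of all genes did. DESeq2 called 7 of 92 higher, against 1.43% of all genes. The median fitted log2 fold change was 5.12 for the members and 0.01 for all genes, and 4.31 over the 72 members for which pooled counts or bounds gave a value. Without NS-R replicate 3 the fitted median of the members was 0. Igkv4-91 had the smallest p (0.00525, adjusted 0.395 by edgeR), with 0.351, 1.03 and 6.20 CPM in NS-R against the WTS-R values above. Igkv14-126 followed, at 0.135, 0.114 and 26.1 CPM in NS-R and 0.300, 0.113 and 0.441 CPM in WTS-R. Then came Igkv12-44, at 0.0811, 0.171 and 8.98 CPM in NS-R. Igkv4-61 was at 0, 1.37 and 3.602 CPM, and Igkv6-23 at 0.243, 0.0570 and 9.74 CPM in NS-R. Of the 5, Igkv4-91 alone was above its 3-count floor in all 3 NS-R libraries, and for the rest the level came mainly from replicate 3, or from replicates 2 and 3 for Igkv4-61.

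In NTS-R against NS-R, 2 members were higher at an unadjusted p under 0.05, where 1.25% of all genes were, and 1 was lower, where 5.11% of all genes were. The lowest adjusted p was 0.591, and 1 member was higher without overlap, where 7.03% of all genes were. DESeq2 called 0 of 85 in either direction, against 0.0199% of all genes higher and 1.64% lower. Without NS-R replicate 3, edgeR called 3 of 82 members higher, where 0.0385% of all genes were. The median fitted log2 fold change was 0.44 for the members and -0.01 for all genes. Its sign turned when a library was left out: it was -0.23 without NS-R replicate 1, -0.005 without NS-R replicate 2 and 5.21 without NS-R replicate 3. The smallest p belonged to Igkv8-27 (0.0194, adjusted 0.591 by edgeR), at 0.290, 5.52 and 8.93 CPM in NTS-R and 0.108, 0.171 and 0.354 CPM in NS-R. Igkv4-69 was at 2.44, 0 and 0.211 CPM in NTS-R and had no count in NS-R, so its level came mainly from NTS-R replicate 1. Igkv6-14 was lower, at 0.0580, 0 and 0.492 CPM in NTS-R and 0, 0 and 25.8 CPM in NS-R, which is NS-R replicate 3 alone.

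For the interaction, in which the difference between TS-R and WTS-R is taken from that between NTS-R and NS-R, all 77 members had a negative value. Igkv4-69 and Igkv5-37 had no count in NS-R or WTS-R, so the fit could not estimate their interaction (SE 6058 and 30296) and their sign is not informative. The median was -8.61 for the members and -0.06 for all genes. At an unadjusted p under 0.05, 60 were negative, where 13.6% of all genes were, and the lowest adjusted p was 0.136. DESeq2 called 42 of 81 negative, against 5.77% of all genes. Igkv12-44 had the smallest p (0.00127, adjusted 0.136 by edgeR), with an interaction of -11.11 ± 2.69 (SE) on the log2 scale. Igkv4-91 followed with -7.76 ± 1.89, then Igkv9-120, Igkv6-23 and Igkv14-111 with values of -8.60 ± 2.25, -8.56 ± 2.34 and -9.65 ± 2.74. Without TS-R replicate 1, edgeR called 5 of 76 members negative, where 2.99% of all genes were. These values also hold NS-R replicate 3, whose Igkv level sets the NS-R mean. The members' median was -3.72 without NS-R replicate 3, and -2.005 without the libraries with Xist above 10 CPM.

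The 10 most abundant members by the mean of the 4 group means were Igkv10-96, Igkv8-30, Igkv12-44, Igkv6-15, Igkv1-117, Igkv1-135, Igkv15-103, Igkv14-111, Igkv6-17 and Igkv4-68. TS-R, and in it replicate 3, weighs most in this order. Igkv4-68, for example, took 0.107% of Igkv counts in NTS-R replicate 1, while Igkv3-4, at rank 12, took 3.76% to 6.92% in NTS-R. The same 10 were the highest per kilobase of exon, with Igkv6-15 before Igkv12-44. Per kilobase the mean of group means was 85.9 CPM for Igkv10-96, 80.9 CPM for Igkv8-30 and 42.9 CPM for Igkv4-68. Igkv10-96 was at 28.7, 5.11 and 16.3 CPM in NTS-R, at 4.73, 72.9, 273 and 54.7 CPM in TS-R, at 0.0540, 1.08 and 14.1 CPM in NS-R, and at 0.0601, 0.226 and 0.0630 CPM in WTS-R. NTS-R replicate 1 held more Igkv10-96 than TS-R replicate 1 although its summed Igkv level was lower. Igkv8-30 was at 2.15, 12.5 and 17.1 CPM in NTS-R, at 6.07, 26.7, 353 and 23.4 CPM in TS-R, at 0, 0 and 15.2 CPM in NS-R, and at 3.06, 0.339 and 0 CPM in WTS-R. It was the most abundant member in WTS-R replicate 1, where its level exceeded that of NTS-R replicate 1 and of NS-R replicates 1 and 2. Group means of Igkv1-117 were 3.71 ± 1.06 CPM in NTS-R, 83.7 ± 125 CPM in TS-R, 3.38 ± 5.51 CPM in NS-R and 0.489 ± 0.463 CPM in WTS-R (SD). The SD exceeded the mean in TS-R and NS-R, where a single library held most of the level.

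By family, usage was spread and shifted mainly where a single gene led. Family 4, the largest with 31 of the 124 members, took 10.8% to 20.3% of Igkv counts in the 8 deep libraries, under its 25.0% of members. The 9 genes of family 6 took 9.87% to 18.1%, above their 7.26% of members. Family 10, with 3 members, ranged from 3.41% (TS-R replicate 1) to 28.1% (NTS-R replicate 1). Family 12 was highest in TS-R replicate 1 (15.6%) and NS-R replicate 3 (13.1%), and family 14 in TS-R replicate 1 (13.2%), NS-R replicate 3 (11.6%) and NTS-R replicate 1 (11.5%). The 25 annotated pseudogenes, which cannot encode a full light chain, were 20.2% of members and took 0.0228% to 0.215% of counts.

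Along the locus, genes on the strand opposite to Igkc took 54.0% to 65.5% of counts in the deep libraries, beside 57.3% of members. By position, the 41 members nearest to Igkc took 32.2% to 46.2%, the middle 41 took 7.78% to 30.3%, and the 42 farthest took 30.3% to 60.03%. The lowest share of the middle part and the highest of the far part came from NTS-R replicate 1, in which Igkv10-96 and Igkv14-126 belong to the far part. In the other 7 the far part took 30.3% to 41.8%.

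**Figure D4:**
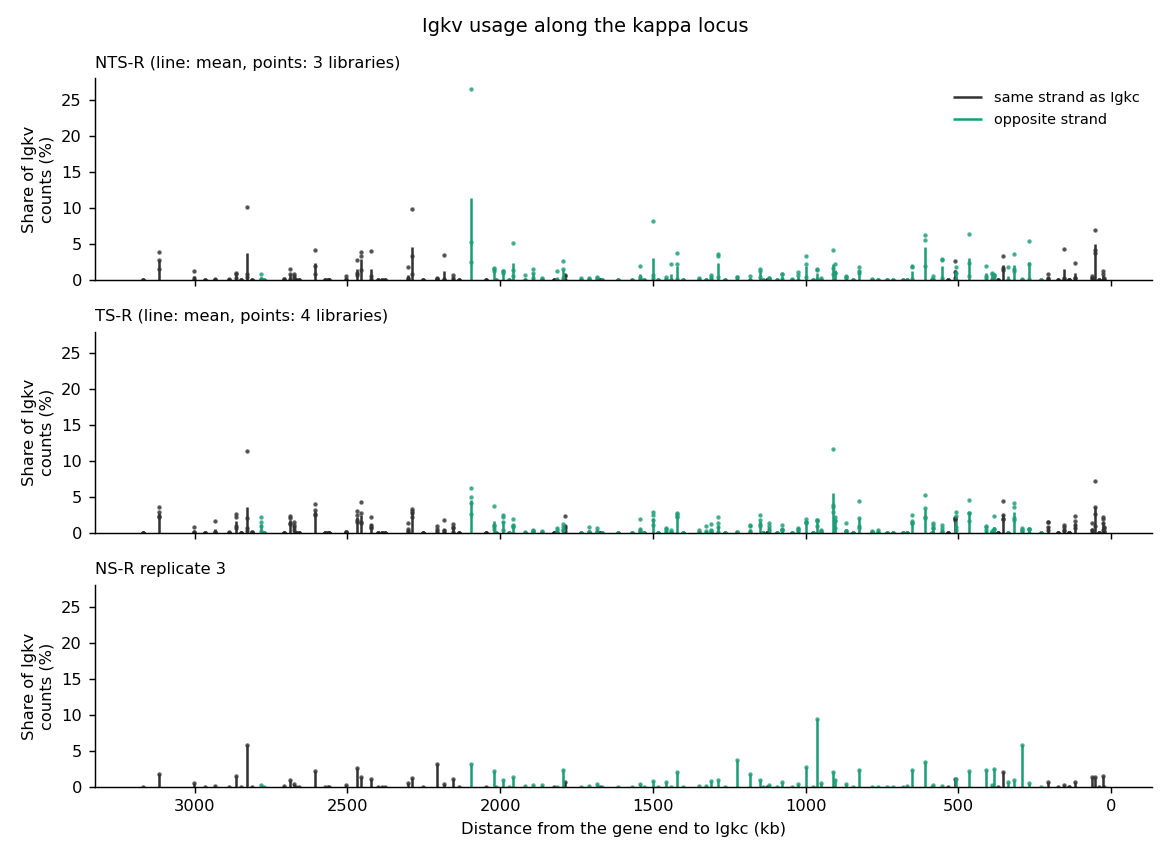
Share of Igkv counts (%) per gene against the distance from the gene's end to Igkc in kb, with Igkc at the right; lines are means of the NTS-R libraries (top), of the TS-R libraries (middle) and the single value of NS-R replicate 3 (bottom), points are libraries and colour marks the strand. Used genes lie along the whole locus on both strands; the highest point is Igkv10-96 in NTS-R replicate 1 at 26.6%, 2094 kb from Igkc.

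Other antibody genes were high in the same libraries as the Igkv sum. Igkc, the constant region, was at 150, 378 and 420 CPM in NTS-R, at 680, 2091, 20660 and 2301 CPM in TS-R, at 8.05, 22.7 and 885 CPM in NS-R, and at 11.4, 9.77 and 14.1 CPM in WTS-R. The ratio of summed Igkv to Igkc counts lay between 0.252 (TS-R replicate 1) and 0.734 (NTS-R replicate 3) in all 13 libraries, whose Igkv sums ran from 3.67 to 6545 CPM. Lambda V genes, the other light chain class, took 6.48% to 8.09% of light chain V counts in NTS-R, 4.08% to 7.47% in TS-R and 4.82% in NS-R replicate 3, against 7.62% to 14.5% in WTS-R. In NS-R replicate 1 they took 50% and in replicate 2 18.3%, at Igkv sums of 3.68 and 10.4 CPM. Of 10 tested genes from a list of 14 other light chain genes, 10 were higher in TS-R than in WTS-R at an unadjusted p under 0.05 by edgeR (15.2% of all genes were) and 0 passed the FDR, with a median log2 fold change of 6.80.

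Of Jchain and Cd79a, markers of the cells that make light chains, Jchain stayed closer to Igkv. Other plasma cell markers did not all follow. In TS-R against WTS-R, fitted log2 fold changes were 0.24 for Xbp1, 0.22 for Irf4, 0.25 for Fkbp11 and 0.68 for Sdc1, beside 8.31 for Jchain. Of 16 plasma cell markers, 12 were higher at an unadjusted p under 0.05 by edgeR, where 15.2% of all genes were. Jchain, which joins antibody multimers and marks plasma cells, was at 34.4, 99.1 and 161 CPM in NTS-R, at 129, 510, 2192 and 595 CPM in TS-R, at 4.81, 5.53 and 179 CPM in NS-R, and at 2.52, 1.41 and 2.65 CPM in WTS-R. It was high in the same 8 deep libraries, with 1.32 to 3.14 Igkv counts per Jchain count there. Cd79a, a signalling chain of the B cell receptor, was at 8.70, 1.86 and 3.17 CPM in NTS-R, at 6.17, 91.7, 459 and 37.8 CPM in TS-R, at 3.51, 3.14 and 6.55 CPM in NS-R, and at 2.88, 3.05 and 2.90 CPM in WTS-R. NTS-R replicates 2 and 3 thus had Cd79a at the WTS-R level with 201 and 309 CPM of Igkv. Igkv counts per Cd79a count were 12.4, 108 and 97.5 in NTS-R, 27.7, 12.7, 14.3 and 28.5 in TS-R, 1.05, 3.33 and 68.5 in NS-R, and 2.52, 1.204 and 2.11 in WTS-R.

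**Figure D5:**
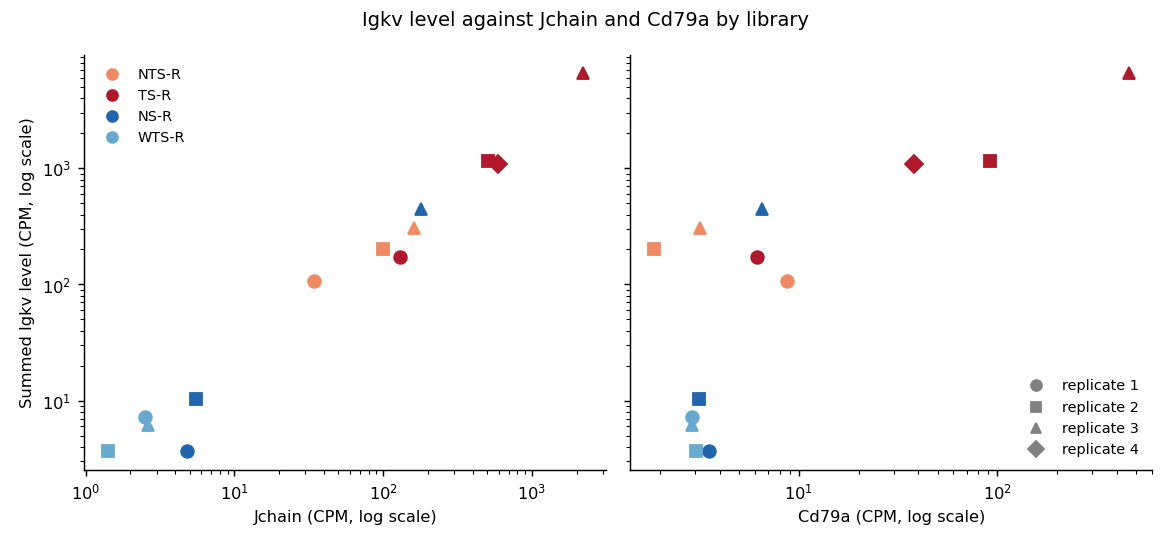
Summed Igkv level (CPM, log scale) per library against Jchain (left) and Cd79a (right), both in CPM on log scales, with group by colour and replicate by shape. The 8 libraries with 108 CPM of Igkv or more have 34.4 CPM of Jchain or more and the other 5 have at most 5.53 CPM, while NTS-R replicates 2 and 3 and NS-R replicate 3 have 201 to 449 CPM of Igkv at a Cd79a level of 1.86 to 6.55 CPM.

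The heavy chain class differed too. Fitted log2 fold changes for TS-R against WTS-R were 14.26 ± 3.75 (SE) for Ighg1, 11.7 ± 2.66 for Ighg2b and 12.59 ± 3.10 for Ighg2c. These are IgG constant genes. Beside them Igha had 8.23 ± 2.19 and Ighm 4.185 ± 0.922, and none of these genes passed the FDR. Igha, the IgA constant gene, was at 4.52, 306 and 325 CPM in NTS-R, at 490, 1148, 2296 and 1892 CPM in TS-R, at 1.73, 7.69 and 461 CPM in NS-R, and at 0.661, 3.16 and 8.45 CPM in WTS-R. NTS-R replicate 1, the library led by Igkv10-96, had little Igha and 184 CPM of the IgM constant gene Ighm, whereas NTS-R replicates 2 and 3 had 26.6 and 66.9 CPM of Ighm. The part of this difference in the usage of NTS-R replicate 1 was not tested. Whole marker lists were read beside the members. Of 13 B cell markers, 13 had higher values in TS-R than in the WTS-R libraries and 13 lower values in NTS-R than in TS-R at an unadjusted p under 0.05, of 16 plasma cell markers 12 and 10 did so, and of 7 T cell markers 7 and 7. Of 8 germinal centre markers 6 and 6 did so, and of 6 tested genes of high endothelial venules and lymphoid stroma 5 and 5. Over all genes 15.2% were higher and 14.1% lower at that p, and 0 members of these lists passed the FDR by edgeR. The summed B cell list was at 35.4 to 240 CPM in NTS-R, 215 to 4723 CPM in TS-R, 47.5 to 149 CPM in NS-R and 35.8 to 50.1 CPM in WTS-R. The plasma cell list was at 390 to 962 CPM in NTS-R, 1016 to 24480 CPM in TS-R, 339 to 1280 CPM in NS-R and 180 to 404 CPM in WTS-R. Both sums include antibody genes, Ighm and Ighd in the B cell list and Igha and Ighg genes in the plasma cell list. Ighm made up 184 of 240 CPM of the B cell sum in NTS-R replicate 1, 183 of 215 CPM in TS-R replicate 1 and 1251 of 4723 CPM in TS-R replicate 3. Adipocyte markers, which define the labelled tissue, were present in every library, at 3890 to 4597 CPM in NTS-R, 1124 to 4584 CPM in TS-R, 3261 to 4337 CPM in NS-R and 4686 to 6567 CPM in WTS-R. The 1124 CPM was TS-R replicate 3, the library highest in Igkv, and every other library was at 3261 CPM or more. Its sums of the T cell list and of the venule and lymphoid stroma list, 569 and 1907 CPM, were the highest of all libraries. The part of this tissue content in its Igkv level was not tested.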

How the data were processed

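Bulk RNA sequencing of 13 perivascular adipose tissue samples was read from the deposited table of raw counts per gene. Per the labels' protocols, total RNA was extracted with TRIzol and paired-end libraries were made with an ABclonal mRNA-seq kit. HISAT2 and featureCounts are named in the submitters' processing notes, with no version; the authors' build, annotation and strandedness are not given in the sources available, so reads of near-identical Igkv genes may be split or dropped. Identifiers were matched to GENCODE M21 (33302 of 34013). Members, lists and comparisons were chosen with earlier results of these data known. Groups follow the sample titles. Testing used edgeR 4.0.16 under R 4.3.3 (filterByExpr, TMM, 13 libraries, FDR under 0.05) and checked on simulated data. The biological coefficient of variation common to all genes was 0.389, and no pair of libraries of a group agreed within sampling noise. The genes named are the 10 highest by the mean of group means, the leader of each library, and up to 5 per direction and comparison with the smallest unadjusted p; of the last, those of NTS-R against NS-R were printed in part. Genes over 5% of a deep library, and their relatives, were named after their values were seen. DESeq2 1.42.0 and limma 3.58.1 were alternatives. Germline DNA is shown where protein sequences had been planned.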

Additional observations from a re-analysis of the deposited data

Results flagged for a closer look

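TS-R was the only group with enough libraries for a check of single extreme values. Of 35 values checked, 13 lay apart from the other 3 libraries by Dixon's criterion at 95%. Chance meets it in about 1 of 20 groups of normally distributed values. The CPM values were checked without taking logs and were skewed, so that rate need not hold for them. Members share libraries, so these are not 13 separate events. TS-R replicate 3 stood apart in the summed Igkv level (6545 CPM) and in Igkv8-30 (353 CPM), Igkv12-44 (255 CPM), Igkv6-15 (280 CPM), Igkv1-117 (271 CPM), Igkv1-135 (236 CPM), Igkv15-103 (188 CPM), Igkv14-111 (200.3 CPM), Igkv4-68 (182 CPM), Igkv12-46 (119.9 CPM) and Igkv4-61 (23.9 CPM). TS-R replicate 1 stood apart in the share of Igkv12-44 (11.7% of Igkv counts), and TS-R replicate 4 in Pielou evenness (0.900).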

How the results depend on the processing

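The counts of members past an adjusted p of 0.05, 0 in the fit reported above, depended on the tool and the libraries. The share of all genes called by the same rule is given in brackets. Higher in TS-R than in WTS-R were 74 by DESeq2 (8.11%), 69 by limma voomWithQualityWeights (13.5%), 63 with no filter on low counts (2.42%), 15 without the libraries with Xist above 10 CPM (0.276%), and 0 to 65 when a single library was left out. Lower in NTS-R than in TS-R were 9 by DESeq2 (6.61%), 24 by limma (7.28%), 2 of 124 with no filter (1.14%, near the members' 1.61%) and 0 to 6 without a single library. Higher in NS-R than in WTS-R were 7 by DESeq2 (1.43%). Higher in NTS-R than in NS-R were 14 without the libraries with Xist (0.186%) and 0 to 3 without a single library. Negative in the interaction were 42 of 81 by DESeq2 (5.77%) and 1 of 77 by limma (7.24%, above the members' 1.3%). With no filter 1 of 124 was negative (0.268%, beside the members' 0.806%), and 0 to 5 were without a single library. DESeq2 size factors in edgeR, the level of clock genes as a covariate and, where it could be fitted, each pair of groups alone gave 0 in every comparison; NS-R and WTS-R alone left no member after the filter. With the replicate number as a replicate block the count for TS-R against WTS-R was 57 (3.58%) and the others stayed at 0. Deviations of same-numbered libraries correlated at -0.26 to 0.27, over 0.1 in 6 of 18 pairs, and those of differently numbered libraries at -0.32 to 0.33. Whether libraries of equal number share more than the number was not tested. The cause of these changes was not tested. Differences of the summed level kept their direction under all alternatives run. Of the usage measures, the difference in effective number between NTS-R and NS-R changed sign without NTS-R replicate 2. For the expected number in 100 counts the sign was also opposite, at -0.37, and at 500 counts (-6.47) NS-R is replicate 3 alone. Mean Pielou evenness was lower in NTS-R (0.842) than in NS-R (0.896), opposite in direction to the effective number (24.9 and 22.1). It averaged 0.866 in TS-R and was 0.755, 0.918 and 0.854 in NTS-R, so the lower NTS-R mean rested on replicate 1. WTS-R usage is limited by its 65 to 121 Igkv counts.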
